A study of Mus musculus with 10 samples.

Results

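Collagens are the triple-helical proteins of the extracellular matrix, and each gene of the family encodes 1 chain. The rows examined here are those whose symbol is Col, a number, the letter a and a number. There were 43 such rows among the 23337 genes listed, and 29 of them reached 10 normalised reads in at least 2 of the 10 libraries and are reported. The unit throughout is the normalised read, a read count divided by a size factor of its library. By chain class the 29 held 10 fibrillar, 4 basement membrane, 4 beaded filament, 1 anchoring fibril, 2 short-chain network, 4 fibril-associated, 2 transmembrane and 2 multiplexin chains.

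The chains assemble as trimers in the endoplasmic reticulum after prolines and lysines are hydroxylated, and most fibrillar chains are trimmed of their propeptides outside the cell. Type I collagen, made of Col1a1 and Col1a2 chains, forms the bulk of fibrils made by fibroblasts, with types III and V in the same fibrils. Type IV collagen forms the sheet-like network of basement membranes, and type VI forms beaded filaments around cells.

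RNA sequencing measured immortalised mouse embryonic fibroblasts (MEFs), labelled either Slfn2 WT or Slfn2 KO. Slfn2 encodes a Schlafen family protein linked to growth control and interferon responses. Each labelled genotype was left untreated or received mouse interferon-β (IFN-β), an antiviral cytokine, at 5000 IU/ml for 6 h. Each WT-labelled group had 3 replicate libraries, and each KO-labelled group had 2. The labels describe wells plated from WT and KO cells and name no further line or clone, so each p-value measures only the spread between these libraries. A genotype difference therefore cannot be told apart from a difference between the cell lines that carry the labels. The KO allele, and the part of Slfn2 that it lacks, are not given in the labels. Slfn2 itself stood at 18.7, 17.4 and 15.5 normalised reads in the untreated WT-labelled libraries and at 527, 449 and 573 with IFN-β. It stood at 46.1 and 34.9 in the untreated KO-labelled libraries and at 75.0 and 171 with IFN-β. Without the deleted part these values do not check the label.

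Depth was 13565815 to 16329729 reads per library. Each of the 11 fibroblast markers examined reached 10 normalised reads in some library, and the 6 epithelial markers were under 10 normalised reads in every library. Among the endothelial markers 3 of 4 were under 10 normalised reads throughout, as were 3 of the 5 macrophage and leukocyte markers. Among the fibroblast markers, the proteoglycan genes Dcn and Lum were far lower in KO-labelled libraries. Dcn was at 1567 to 2355 normalised reads in the WT-labelled libraries and at 77.3 to 107 in the KO-labelled ones. Fn1 and Prrx1 went the other way, also without overlap. Fn1 was at 40960 to 61897 in WT-labelled and at 68100 to 106138 in KO-labelled libraries. Prrx1 was at 3591 to 5705 in the former and at 6323 to 9507 in the latter. Libraries of the same number resembled each other across groups. Those of number 1 stood apart by high Acta2, Tagln and Cnn1 among the smooth muscle markers, while Des went the other way. Their values are given with the chains that split by number. Deviations from the group means correlated at 0.517 to 0.923 over 13 pairs of libraries with the same number in different groups, and at 0.339 or less over 24 pairs with different numbers. In a group of 2 libraries the deviations are mirror images, so values with KO-labelled libraries recur with the sign reversed and are not separate checks. Among WT-labelled libraries alone, the correlations were 0.617 to 0.843 for the same number and 0.0182 or less for different numbers. The genotype fits were therefore run without and with the library number as a block. Genotype values are from the fit without the block unless the text says otherwise. Both are given for chains whose untreated call differs.

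Fibrillar chains dominated. The collagen chains took 1.12% to 2.87% of all normalised reads of a library, and Col1a1, Col1a2 and Col3a1 together made up 71.8% to 80.8% of the collagen reads. The share was highest in the KO-labelled libraries of number 2, at 2.87% untreated and 2.67% with IFN-β, and lowest in the WT-labelled libraries of number 3, at 1.17% and 1.12%. Per kilobase of exon, averaged over the 10 libraries, the order was Col1a1, Col1a2, Col3a1, Col6a1, Col6a2 and Col5a1. In the untreated WT-labelled libraries these were at 14667 ± 5122, 9943 ± 1754, 5038 ± 1131, 2602 ± 372, 1550 ± 316 and 1542 ± 477 normalised reads per kilobase (SD, n = 3). The levels of Col1a1 and Col1a2 lay within their spread of each other, as did those of Col6a2 and Col5a1.

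At the reporting threshold, Col15a1 reached 10 normalised reads in 3 libraries, Col6a4 in 4, Col9a3 and Col23a1 in 6 each and Col17a1 in 7. For Col23a1 these were the 6 WT-labelled libraries. Just outside it, with no library at 10, the highest values were 9.27 for Col28a1, 8.48 for Col14a1, 7.21 for Col24a1 and 5.49 for Col10a1, the chain of hypertrophic cartilage. Among the others below the threshold, Col22a1, Col6a5 and Col25a1 reached 4.13, 4.12 and 3.85, and Col9a1 and Col9a2, partners of Col9a3 in type IX collagen, reached 1.03 and 0.968. Col13a1, Col19a1 and Col6a6 had 0 reads in all 10 libraries, where a count of 0 allows up to 3 reads, or 2.73 to 3.29 normalised reads, in each (counting error only). All 29 reported chains passed the low-count filter of the test, among 12313 genes tested.

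**Figure D1:**
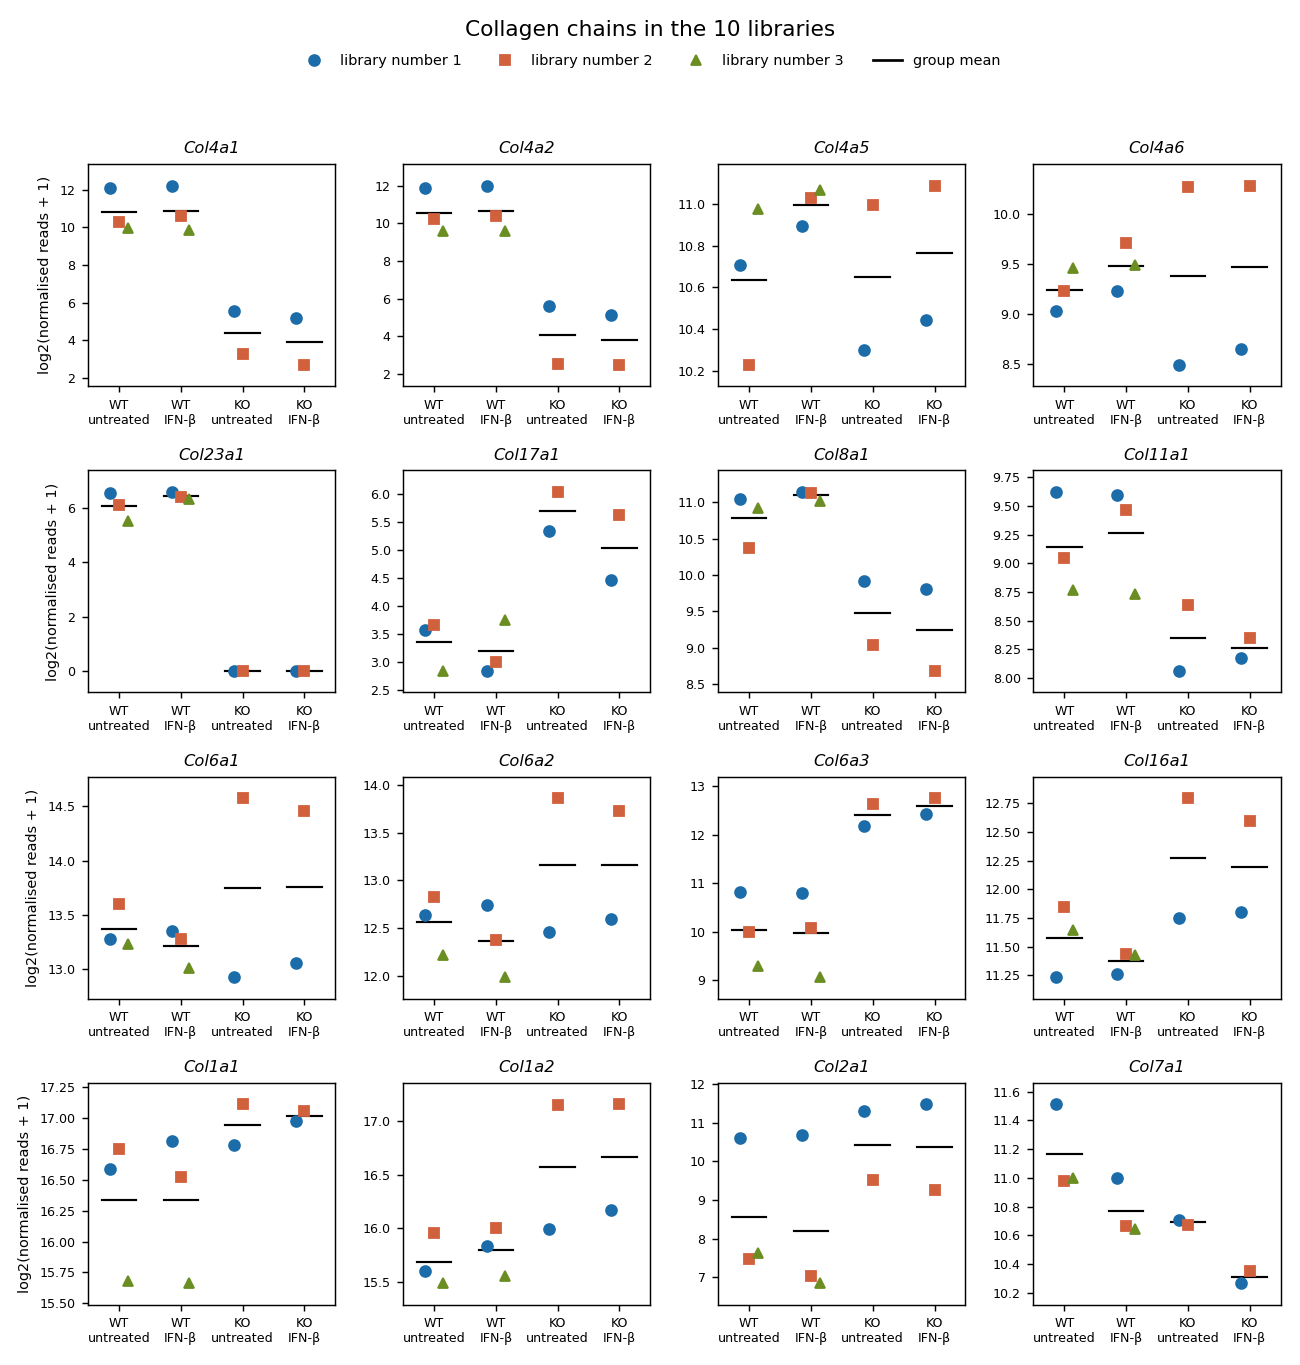
Log2 of normalised reads plus 1 (vertical axis, a separate scale in each panel) for 16 collagen chains in the 4 groups, with 1 point per library, its shape giving the library number, and a line at the group mean. Col4a1, Col4a2 and Col23a1 lie far lower in the KO-labelled libraries, Col6a3 and Col17a1 lie higher, and Col4a5 and Col4a6 overlap between the labels.

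Of the basement membrane chains, Col4a1 and Col4a2 were far lower in KO-labelled cells. Col4a1 and Col4a2 together form the common trimer of type IV collagen. In untreated WT-labelled libraries 1 to 3, Col4a1 was at 4429, 1265 and 991 normalised reads, and with IFN-β at 4735, 1534 and 941. In the KO-labelled libraries it was at 46.1 and 8.48 untreated and at 34.9 and 5.47 with IFN-β. The groups did not overlap, and the lowest WT-labelled library lay far above the highest KO-labelled one. Untreated Col4a1 fell by 6.39 ± 1.03 on the log2 scale in KO-labelled against WT-labelled cells (SE, limma adjusted p = 0.00717), an 81.6-fold lower mean. With IFN-β the log2 difference was -6.96 ± 1.03 (limma adjusted p = 0.00461), a 119-fold lower mean.

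Col4a2 followed its partner. It was at 3799, 1196 and 775 normalised reads in the untreated WT-labelled libraries, at 4108, 1363 and 774 with IFN-β, at 47.2 and 4.71 in the untreated KO-labelled libraries and at 33.8 and 4.56 with IFN-β. Again no KO-labelled value reached a WT-labelled one. The log2 difference was -6.52 ± 1.15 untreated (limma adjusted p = 0.0108) and -6.88 ± 1.15 with IFN-β (limma adjusted p = 0.00857), with means 74.1-fold and 109-fold lower. Without the KO-labelled library 2 of the treatment compared, the limma adjusted p untreated was 0.0586 for Col4a1 and 0.0813 for Col4a2, and with IFN-β 0.077 for Col4a2. Compared within library numbers, the untreated fold was 96.02 for Col4a1 in number 1 and 149 in number 2, and 80.5 and 254 for Col4a2. With the block both chains passed in each treatment with any of the 10 libraries left out.

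The other type IV chains reported, Col4a5 and Col4a6, did not pass by label in either treatment or fit. These 2 chains, which form another trimer of basement membranes, are encoded head to head on chromosome X with 1342 bases between their RefSeq starts. Col4a5 was at 1671, 1201 and 2008 normalised reads in the untreated WT-labelled libraries and at 1262 and 2040 in the untreated KO-labelled ones, a log2 difference of 0.01 (95% interval -0.63 to 0.65, limma adjusted p = 0.989). Col4a6 was at 522, 599 and 704 in the former and at 359 and 1234 in the latter, a log2 difference of 0.14 (95% interval -1.10 to 1.38, limma adjusted p = 0.926). With IFN-β the log2 differences were -0.23 (95% interval -0.87 to 0.41) for Col4a5 and -0.01 (95% interval -1.25 to 1.23) for Col4a6. Both overlapped between the labels, and each was lower in the KO-labelled library of 2 of 4 number-matched pairs. Col4a3 and Col4a4, the further pair of type IV chains known from kidney, stayed below 3 normalised reads in every library.

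The ratio of Col4a1 to Col4a2 per kilobase of exon was 1.03 to 1.25 in the 6 WT-labelled libraries. In the KO-labelled libraries it was 0.953, 1.76, 1.01 and 1.17, on 44 and 45, 9 and 5, 33 and 32, and 6 and 5 reads, so the spread of these 4 values rests on few reads. The 2 genes lie head to head on chromosome 8 (mm10), Col4a1 at 11198423 to 11312826 on the minus strand and Col4a2 at 11312805 to 11449287 on the plus strand, in the GENCODE annotation. Their annotated first exons overlap by 22 bases. These bases are shown because the start that the pair shares is the place where the 2 chains meet. They run at chr8:11312802-11312829 with the overlap in capitals and 3 bases on each side, written 5′ to 3′ on each gene's own strand.
Col4a2: ggcAGTGCGCGGGCGGCGTCTCCAAggg
Col4a1: cccTTGGAGACGCCGCCCGCGCACTgcc

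Genes on either side of the pair did not share the size of its difference. In untreated cells, Rab20, the next gene beyond Col4a2, had a mean of 35.6 normalised reads in WT-labelled and 9.48 in KO-labelled libraries. Cars2 beyond it was at 465 and 367, Ing1 at 941 and 773, and Ankrd10 at 1400 and 761. On the Col4a1 side Irs2 was at 355 and 488. The low 3930402G23Rik beyond it was at 4.56 and 36.9, also higher in KO-labelled libraries. These are descriptions of means.

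Col23a1, a transmembrane collagen, was detected in the WT-labelled libraries alone, so it met the reporting threshold only through the label where it is high. It was at 93.3, 68.7 and 45.4 normalised reads in the untreated WT-labelled libraries and at 95.8, 84.0 and 79.9 with IFN-β. All 4 KO-labelled libraries held 0 reads. Against a floor of 3 reads per library, the mean was at least 23.2-fold lower untreated and at least 29.3-fold lower with IFN-β in KO-labelled cells. The limma adjusted p was 9.98e-05 untreated and 5.59e-05 with IFN-β, and the call held with each library left out, with and without the block. The gene spans chromosome 11 from 51289920 to 51583918 on the plus strand. Its neighbours Clk4 and Hnrnpab had untreated means of 718 and 19020 normalised reads in WT-labelled against 689 and 17376 in KO-labelled cells.

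The other transmembrane chain, Col17a1, known from hemidesmosomes of epithelia, went the other way at low level. It was at 10.98, 11.6 and 6.19 normalised reads in the untreated WT-labelled libraries and at 6.18, 6.998 and 12.5 with IFN-β. In the KO-labelled libraries it was at 39.8 and 65.0 untreated and at 21.1 and 48.3 with IFN-β. The labels did not overlap in either treatment, and the KO-labelled library of number 2 was the higher one each time. Untreated Col17a1 rose by 2.34 ± 0.52 on the log2 scale (SE, limma adjusted p = 0.0328), a 5.46-fold higher mean. With IFN-β the log2 difference was 1.84 ± 0.52 without the block (limma adjusted p = 0.0754) and 1.86 ± 0.47 with it (limma adjusted p = 0.0231). The untreated call was lost without any 1 of 6 libraries (limma adjusted p up to 0.2), namely each untreated library of either label and the WT-labelled IFN-β library 2, and with the block it was lost without the untreated KO-labelled library 2 (0.0735). The blocked call with IFN-β was lost without library 1 or 2 of either label in that treatment (up to 0.196). Epithelial markers did not accompany it: their sum was at most 5.24 normalised reads in any library.

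Type VI collagen changed in 1 of its chains. Col6a3, the long chain that joins Col6a1 and Col6a2 in the beaded filament, was at 1807, 1014 and 625 normalised reads in the untreated WT-labelled libraries and at 1778, 1080 and 535 with IFN-β. Among KO-labelled libraries, the untreated ones were at 4632 and 6347 and the treated ones at 5487 and 6913, all above every WT-labelled library. Col6a3 rose by 2.37 ± 0.52 on the log2 scale untreated (SE, limma adjusted p = 0.0301) and by 2.61 ± 0.52 with IFN-β (limma adjusted p = 0.0198), with means 4.78-fold and 5.48-fold higher. Without the block the untreated call was lost with any 1 of 5 libraries left out, namely untreated WT-labelled 2 and 3, WT-labelled IFN-β 2 and both untreated KO-labelled ones (limma adjusted p up to 0.163). The call with IFN-β was lost without any 1 of 4, namely WT-labelled IFN-β 2 and 3 and both KO-labelled IFN-β ones (up to 0.129). With the block it held in every one of these cases, with log2 differences of 1.96 and 2.19.

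Col6a1 was at 9943, 12420 and 9642 normalised reads in untreated WT-labelled cells and at 7798 and 24404 in untreated KO-labelled cells. Col6a2 was at 6358, 7233 and 4772 in the former and at 5644 and 14907 in the latter. For both chains the KO-labelled library 1 lay within or below the WT-labelled range and library 2 lay above it. The log2 differences were 0.38 (95% interval -0.72 to 1.49) and 0.60 (95% interval -0.42 to 1.63), and neither passed the test. The ratio of Col6a3 to Col6a1 per kilobase was 0.0738, 0.0331 and 0.0263 in the untreated WT-labelled libraries and 0.0688, 0.0442 and 0.0262 with IFN-β. It was 0.241 and 0.106 in the untreated KO-labelled libraries and 0.261 and 0.125 with IFN-β. Every KO-labelled ratio exceeded every WT-labelled ratio, and in both labels library 1 had the highest ratio of its group. Col6a1 and Col6a2, by contrast, kept a ratio of 1.33 to 1.97 over the 10 libraries.

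**Figure D2:**
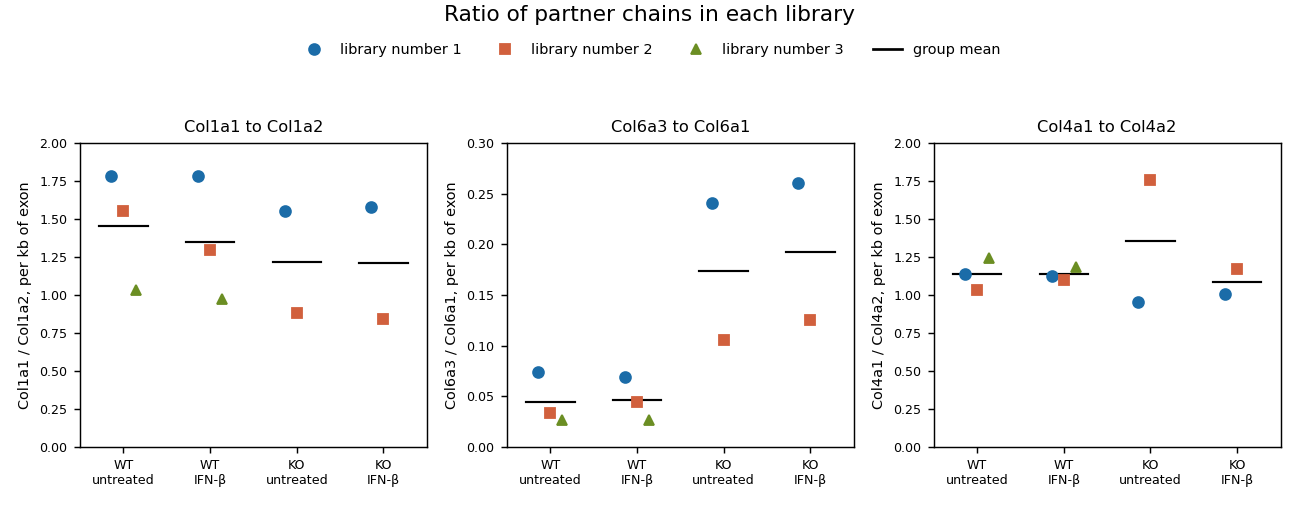
Ratio of the normalised reads per kilobase of exon of 2 partner chains (vertical axis, linear from 0), with 1 point per library, its shape giving the library number, and a line at the group mean. Col6a3 to Col6a1 is higher in all KO-labelled libraries, Col1a1 to Col1a2 differs by library number, and the high Col4a1 to Col4a2 point at 1.76 rests on 9 and 5 reads.

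The stretches upstream of Col23a1 and Col6a3 are shown because these are the chains outside type IV that passed by label in both treatments without the block, the former lower and the latter higher. Both are the 250 bases before the RefSeq start (GRCm38.p6), 5′ to 3′ on the gene's strand, at chr11:51289670-51289919 (plus) for Col23a1 and chr1:90843972-90844221 (minus) for Col6a3. Capitals mark GGGCGG or its reverse complement CCGCCC, the letters bound by Sp1-type factors.
Col23a1: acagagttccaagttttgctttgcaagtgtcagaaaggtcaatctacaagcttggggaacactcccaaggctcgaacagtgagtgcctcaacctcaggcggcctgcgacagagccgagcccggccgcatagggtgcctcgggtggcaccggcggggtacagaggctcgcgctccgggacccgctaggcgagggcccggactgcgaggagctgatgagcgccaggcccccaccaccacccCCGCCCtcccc
Col6a3: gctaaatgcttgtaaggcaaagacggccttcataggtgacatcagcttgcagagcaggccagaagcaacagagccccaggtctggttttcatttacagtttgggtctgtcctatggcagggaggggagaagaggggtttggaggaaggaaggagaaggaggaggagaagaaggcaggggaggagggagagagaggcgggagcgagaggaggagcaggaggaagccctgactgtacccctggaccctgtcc
The Col23a1 stretch was 66% G and C and held the motif, and that of Col6a3 was 57.2% and held no copy in these bases. The median over 27025 promoter windows of 300 bases (250 upstream, 50 downstream) was 52.7%. Over those windows GGGCGG occurred on either strand in 35.9%, CCAAT in 37.9% and TATAAA in 14.2%. Of the 24 chains that matched a promoter entry by symbol, 18 held GGGCGG, 11 held CCAAT and 3 held TATAAA. A match describes letters and not a bound site.

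Counted over the 29 chains, KO-labelled against WT-labelled untreated cells had 2 higher (Col6a3 and Col17a1) and 3 lower (Col4a1, Col4a2 and Col23a1). Col23a1 is in every count of lower chains given here. It met the reporting threshold only through the WT-labelled libraries, so its part in the lower shares is not independent of that selection. The background over all 12313 genes was 3% higher and 3.23% lower. With IFN-β, 1 chain was higher (Col6a3) and 4 were lower (those 3 and Col8a1), against 2.92% and 3.64% of all genes. The shares of chains were 6.9% higher and 10.3% lower untreated, and 3.45% and 13.8% with IFN-β. With the block, 5 chains were higher and 6 were lower, the same 11 genes in both treatments. All genes then passed at 13.5% higher and 13.1% lower untreated, and at 12.7% and 13.3% with IFN-β, so that the 17.2% of chains higher and 20.7% lower stand nearer to the background. The median log2 difference of the 29 chains untreated was 0.20 without and -0.07 with the block, beside 0.0034 and 0.0041 over all genes. The 2 treatments compare different libraries, but all 10 entered the same fit and libraries of the same number resemble each other across treatments, so the calls in the 2 treatments are not independent.

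**Figure D3:**
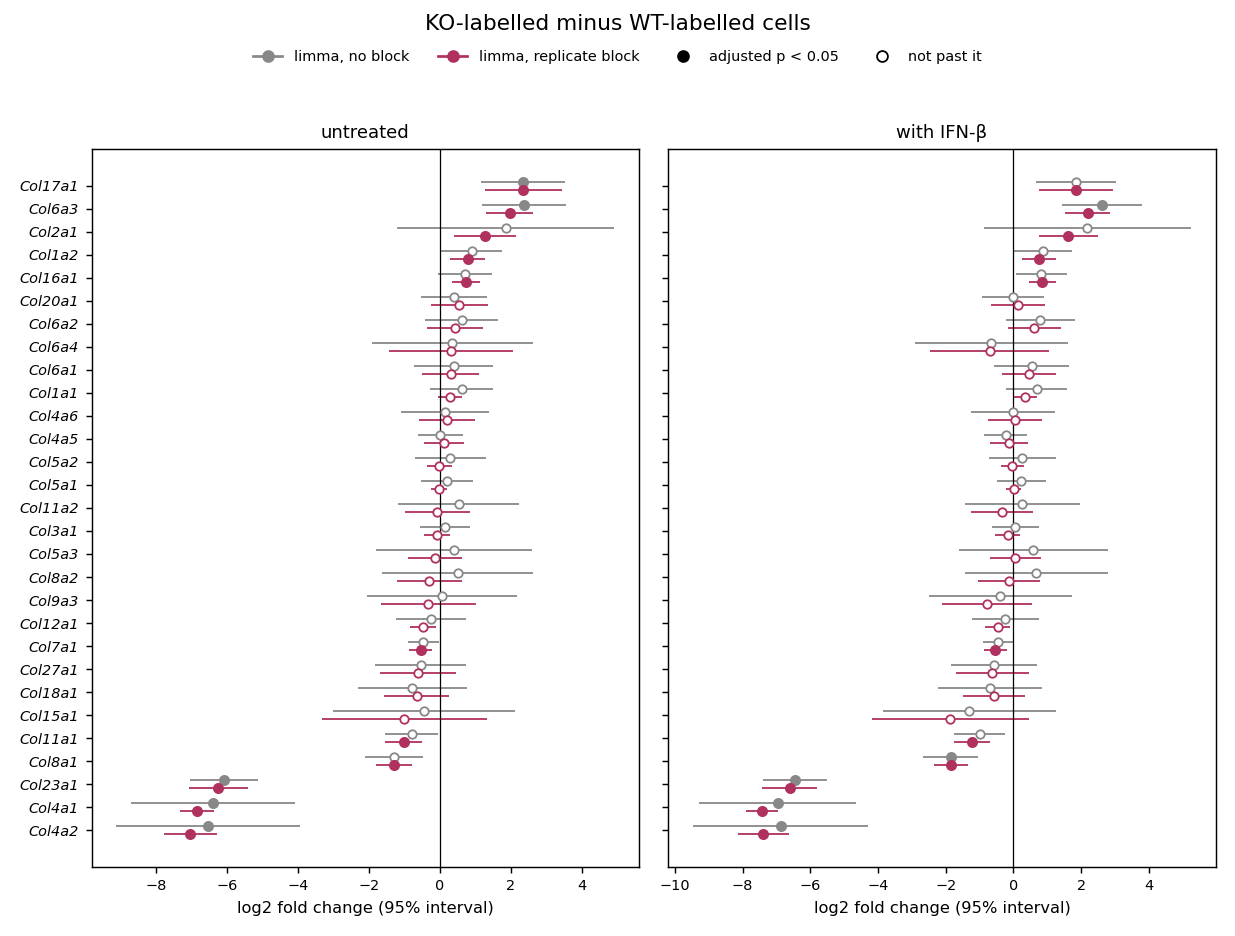
Log2 fold change of KO-labelled over WT-labelled cells for the 29 chains (horizontal axis, bars are 95% intervals), untreated on the left and with IFN-β on the right, without (grey) and with (red) the library number as a block. Filled points passed an adjusted p of 0.05. Col4a1, Col4a2 and Col23a1 lie below -6 in both panels, and Col6a3 is the chain filled on the higher side in both panels under both fits.

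The 6 further chains that passed with the block were smaller in size. Col8a1, a chain of the short-chain network in vessel walls and the cornea, was at 2110, 1328 and 1943 normalised reads in the untreated WT-labelled libraries, at 2264, 2236 and 2078 with IFN-β, at 968 and 522 in the untreated KO-labelled libraries and at 891 and 408 with IFN-β. No KO-labelled value reached a WT-labelled one. With IFN-β it fell by 1.86 ± 0.36 on the log2 scale (SE, limma adjusted p = 0.0177), a 3.37-fold lower mean. That call was lost without the KO-labelled IFN-β library 2 or any 1 of the 3 WT-labelled IFN-β libraries (limma adjusted p up to 0.127). Untreated, the log2 difference was -1.31 ± 0.36 without the block (limma adjusted p = 0.0683) and -1.29 ± 0.22 with it (limma adjusted p = 0.00465), a 2.41-fold lower mean. With the block it held with each library left out in both treatments.

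Col11a1, a fibrillar chain that nucleates fibrils, was at 787, 528 and 435 normalised reads in the untreated WT-labelled libraries and at 266 and 397 in the untreated KO-labelled ones, without overlap. With the block it fell by 1.02 ± 0.23 untreated (limma adjusted p = 0.0136). Without the block the log2 difference was -0.80 ± 0.33 (limma adjusted p = 0.209). Col7a1, the anchoring fibril that fastens basement membranes to dermal collagen, was at 2922, 2018 and 2044 in the untreated WT-labelled libraries and at 1673 and 1632 in the untreated KO-labelled ones, also without overlap. With the block Col7a1 fell by 0.55 ± 0.14 (limma adjusted p = 0.0255), and without it the log2 difference was -0.47 ± 0.19 (limma adjusted p = 0.2). With IFN-β the blocked log2 differences were -1.23 for Col11a1 and -0.53 for Col7a1 (limma adjusted p = 0.00652 and 0.0283). The blocked calls of Col11a1 were lost without a library of number 1 (untreated without either label's, with IFN-β without the KO-labelled one), with limma adjusted p up to 0.105. Those of Col7a1 were lost without any 1 of 5 libraries in each treatment (up to 0.253). Untreated these were the untreated WT-labelled 1 and 3, the WT-labelled IFN-β 3 and both untreated KO-labelled ones. With IFN-β they were the untreated WT-labelled 3, all WT-labelled IFN-β ones and the KO-labelled IFN-β 1.

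Type I collagen was higher in the KO-labelled libraries of either number. Col1a2 was at 49772, 63779 and 45972 normalised reads in the untreated WT-labelled libraries and at 58277, 65555 and 48160 with IFN-β. It was at 65364 and 145075 in the untreated KO-labelled libraries and at 73695 and 145879 with IFN-β. Within each treatment, the KO-labelled library 1 stood just above the highest WT-labelled library and library 2 far above it. The mean was 1.98-fold higher untreated. The log2 difference was 0.89 ± 0.38 without the block (limma adjusted p = 0.227) and 0.78 ± 0.22 with it (limma adjusted p = 0.0302). The blocked call untreated was lost without any 1 of 4 libraries, namely untreated WT-labelled 2 and 3, WT-labelled IFN-β 3 and untreated KO-labelled 2 (limma adjusted p up to 0.261). With IFN-β it was lost without any 1 of 5, namely untreated WT-labelled 3, WT-labelled IFN-β 2 and 3 and both KO-labelled IFN-β ones (up to 0.259).

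Its partner Col1a1 was at 98475, 109922 and 52534 normalised reads in the untreated WT-labelled libraries and at 112448 and 141624 in the untreated KO-labelled ones. With IFN-β it was at 115263, 94081 and 51864 in WT-labelled and at 129010 and 136552 in KO-labelled libraries. Every KO-labelled value was above the WT-labelled values of its treatment, yet Col1a1 passed in neither fit. The blocked log2 differences were 0.28 (95% interval -0.06 to 0.61) untreated and 0.35 (95% interval 0.02 to 0.69, limma adjusted p = 0.109) with IFN-β. Col3a1, which joins type I in fibrils, was at 32458, 30804 and 20828 in the untreated WT-labelled libraries and at 25047 and 36522 in the untreated KO-labelled ones, with overlap and a log2 difference of 0.14 (95% interval -0.56 to 0.83).

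The ratio of Col1a1 to Col1a2 per kilobase was 1.78, 1.55 and 1.03 in the untreated WT-labelled libraries 1 to 3 and 1.78, 1.29 and 0.971 with IFN-β. It was 1.55 and 0.880 in the untreated KO-labelled libraries and 1.58 and 0.844 with IFN-β. The ratio was highest in library 1 of every group, and the labels overlapped.

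Col16a1, a fibril-associated chain, was at 2406, 3674 and 3199 normalised reads in the untreated WT-labelled libraries and at 3438 and 7110 in the untreated KO-labelled ones, which overlapped. The blocked log2 difference was 0.73 ± 0.17 (limma adjusted p = 0.0166), against 0.70 ± 0.33 without the block (0.272). Col2a1, the main cartilage chain, was at 1553, 176 and 197 in the former group and at 2527 and 735 in the latter. Within each library number the KO-labelled value was the higher one, by 1.63-fold in number 1 and 4.17-fold in number 2 untreated. Its log2 difference was 1.28 ± 0.38 with the block (limma adjusted p = 0.0394) and 1.85 ± 1.35 without it (0.5). Among cartilage and bone markers, Acan had 0 reads in all WT-labelled libraries and 6.34 to 16.02 normalised reads in the KO-labelled ones, Sox9 was at 201 to 808 over all 10 libraries, and Matn1 and Ibsp had 0 reads in all 10. Of the 8 such markers 4 were under 10 normalised reads in every library, and their summed level ranged from 1155 to 1726 in WT-labelled and from 1481 to 2105 in KO-labelled libraries. Runx2, at 821 to 1435 over all 10 libraries, was the largest part of that sum. Comp was at 1.10 to 5.78 in WT-labelled and at 5.28 to 31.9 in KO-labelled libraries. The part of these markers in the Col2a1 values was not tested. The blocked call of Col16a1 was lost untreated without the untreated WT-labelled or KO-labelled library 2 and with IFN-β without the KO-labelled IFN-β library 2 (limma adjusted p up to 0.168). That of Col2a1 was lost untreated without any 1 of 6 libraries, namely all untreated WT-labelled ones, WT-labelled IFN-β 2 and 3 and untreated KO-labelled 2 (up to 0.332). With IFN-β it was lost without the IFN-β library 2 of either label (up to 0.132). In such bulk RNA, fewer cells of a type and less RNA per cell cannot be told apart.

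Type V collagen takes part in setting the width of type I fibrils, and none of its 3 chains passed by label. Col5a1 was at 17274, 12265 and 9355 normalised reads in the untreated WT-labelled libraries and at 15855 and 13062 in the untreated KO-labelled ones, which overlapped. Its blocked log2 difference was -0.03 (95% interval -0.25 to 0.19), the narrowest interval of the 29 chains in that fit. That of Col5a2 was -0.02 (95% interval -0.36 to 0.32). Without the block these differences were 0.20 (95% interval -0.53 to 0.93) for Col5a1 and 0.28 (95% interval -0.715 to 1.28) for Col5a2. Col12a1, a fibril-associated chain of tendon and other loaded tissue, was at 5515, 2671 and 2737 in the untreated WT-labelled libraries and at 3381 and 2435 in the untreated KO-labelled ones. It was lower in the KO-labelled library of all 4 number-matched pairs, with a blocked log2 difference of -0.49 (95% interval -0.85 to -0.12, limma adjusted p = 0.0547). These 3 chains and the 9 not yet given by genotype passed in neither fit. Those 9 (Col5a3, Col6a4, Col8a2, Col9a3, Col11a2, Col15a1, Col18a1, Col20a1 and Col27a1) ranged in the blocked untreated fit from -1.004 for Col15a1 (95% interval -3.32 to 1.31) to 0.55 for Col20a1 (95% interval -0.25 to 1.34).

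Chains also differed by library number, at about the share of all genes that did. In the fit with the 4 groups, libraries of number 2 had 7 chains higher and 8 lower than those of number 1, that is 24.1% and 27.6% of the 29, while 25.3% of all genes were higher and 23.3% lower. Lower in number 2 were Col2a1 by -2.70, Col4a2 by -2.25, Col4a1 by -2.06, Col5a3 by -1.69, Col12a1 by -0.75, Col8a1 by -0.67, Col5a2 by -0.63 and Col5a1 by -0.43 on the log2 scale. Higher were Col6a4 by 1.61, Col9a3 by 1.45, Col18a1 by 1.28, Col4a6 by 1.02, Col6a1 by 0.82, Col1a2 by 0.67 and Col16a1 by 0.66. Over these 15 the limma adjusted p ranged from 9.44e-05 for Col4a1 to 0.0436 for Col6a4. The calls of Col6a1 and Col9a3 were lost without any 1 of the 4 KO-labelled libraries, and that of Col6a4 without any 1 of 7, namely those 4, untreated WT-labelled 1 and 3 and WT-labelled IFN-β 3.

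All 3 type V chains were among those lower in number 2. Col5a3, the least abundant of them, was at 808, 196 and 108 normalised reads in untreated WT-labelled libraries 1 to 3, at 814, 146 and 134 with IFN-β, at 452 and 254 in the untreated KO-labelled libraries and at 618 and 233 with IFN-β. Library 1 was the highest of each group. The summed smooth muscle markers had the same order: in the untreated WT-labelled group they ranged from 5742 to 37179 normalised reads and in the untreated KO-labelled group from 2172 to 42098. Within them Acta2 was at 27964 in the WT-labelled untreated library 1 against 8123 in library 2, and at 33434 against 1898 in the KO-labelled ones. Of the 5 smooth muscle markers none was at 0 in every library and 1 was under 10 normalised reads throughout. Their part in the collagen values was not tested.

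The step between numbers was larger among the KO-labelled libraries for some chains and among the WT-labelled libraries for others. Untreated Col6a1 was 3.13-fold higher in number 2 than in number 1 in KO-labelled and 1.25-fold higher in WT-labelled cells. The same folds were 3.44 and 1.15 for Col4a6, 2.22 and 1.28 for Col1a2, and 4.69 and 1.72 for Col18a1. Other chains had the larger untreated step in WT-labelled cells. Col2a1 was 8.81-fold higher in number 1 than in number 2 in WT-labelled and 3.44-fold higher in KO-labelled cells. The same folds were 4.13 and 1.78 for Col5a3, 2.065 and 1.389 for Col12a1, and 1.41 and 1.21 for Col5a1. The difference between the folds of the 2 labels was not tested. Col18a1, the source of the fragment endostatin, shares 8825 bases with Slc19a1 on the opposite strand. The strand setting of the counting is not given in the sources used here, so its reads are uncertain.

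IFN-β changed no collagen chain past the test. In WT-labelled cells 0 of 29 chains passed without the block and 0 with it, while 2.21% of all genes passed without and 4.95% with the block. In KO-labelled cells the counts were also 0 and 0, beside 1.84% and 3.48% of all genes. At an unadjusted limma p under 0.05, 1 chain stood out in WT-labelled cells in either fit, and in KO-labelled cells 0 without and 1 with the block, Col7a1 each time. edgeR with and without the block and DESeq2 also called 0 chains in either label, as did limma with each library left out. The median log2 change of the 29 chains was 0.10 in WT-labelled and -0.04 in KO-labelled cells, beside -0.03 over all genes in each.

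Col7a1 with IFN-β was at 2049, 1619 and 1596 normalised reads in WT-labelled libraries, against the untreated 2922, 2018 and 2044. In KO-labelled cells it was at 1230 and 1305, against 1673 and 1632. It was lower with IFN-β in 5 of 5 pairs of libraries matched by label and number, by -0.51 to -0.32 on the log2 scale. The log2 change was -0.40 ± 0.17 in WT-labelled cells without the block (SE, limma adjusted p = 0.791) and -0.40 ± 0.12 with it (0.144), and in KO-labelled cells -0.38 ± 0.21 and -0.38 ± 0.15 (1 and 0.36).

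The most abundant chains changed by little in the blocked fit, within the intervals given here. For Col1a1 the log2 change was -0.01 (95% interval -0.29 to 0.28) in WT-labelled and 0.07 (-0.28 to 0.42) in KO-labelled cells. For Col1a2 it was 0.11 (-0.31 to 0.53) and 0.09 (-0.43 to 0.61), and for Col3a1 0.25 (-0.07 to 0.57) and 0.17 (-0.22 to 0.56). Col5a1 was lower in 5 of 5 matched pairs, by -0.18 to -0.03. Col1a2, Col3a1, Col4a5, Col4a6, Col5a2 and Col9a3 were higher in 5 of 5, and none of them passed the test.

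**Figure D4:**
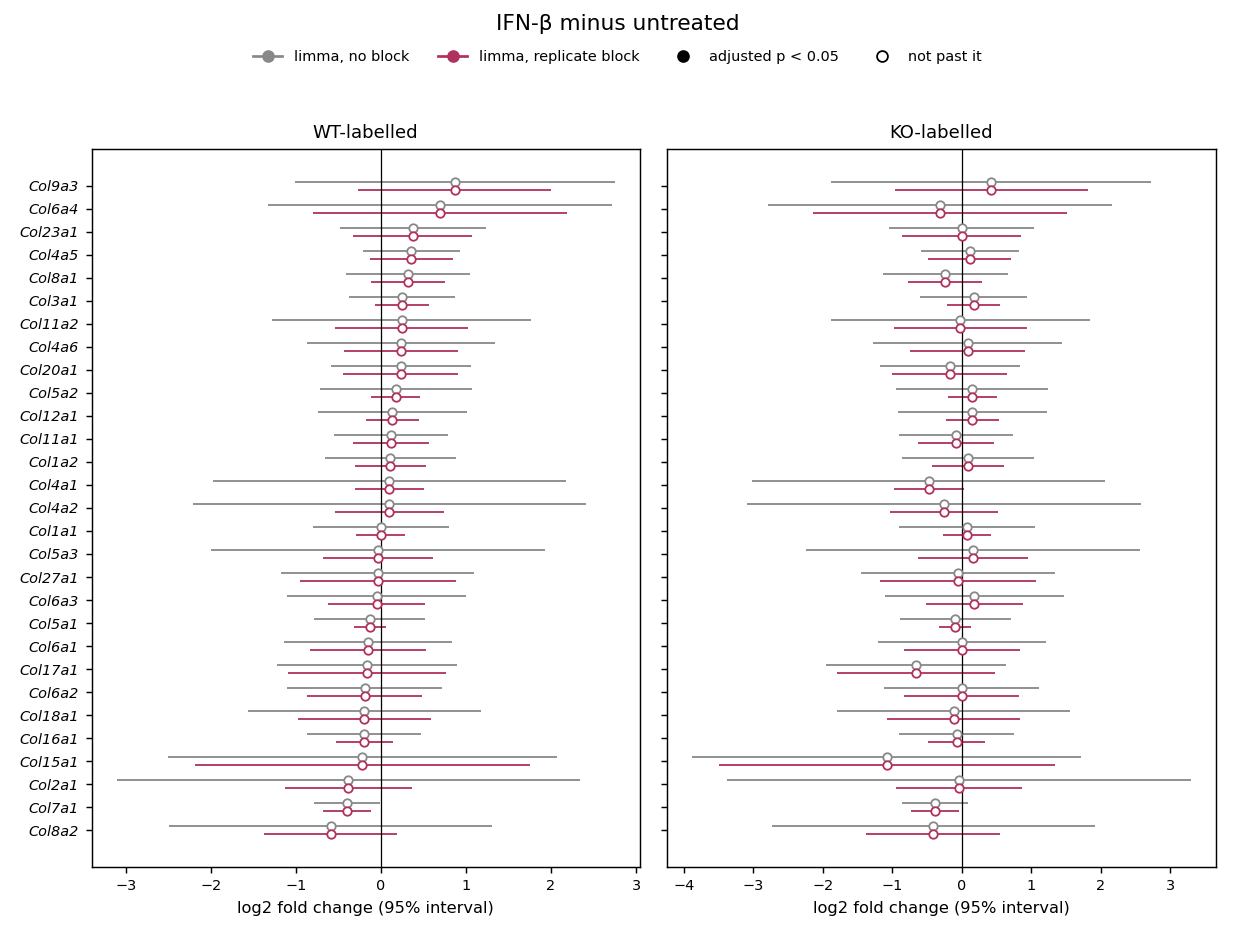
Log2 fold change of IFN-β over untreated for the 29 chains (horizontal axis, bars are 95% intervals), WT-labelled on the left and KO-labelled on the right, without (grey) and with (red) the library number as a block. No point is filled, since no chain passed an adjusted p of 0.05, and Col7a1 lies at -0.40 and -0.38.

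The IFN-β response was also compared between the labels by an interaction term. Among the 29 chains 0 passed in limma without or with the block, where 0% of all genes passed in either fit. Slfn2 also did not pass, at a blocked difference of -3.35 ± 0.47 on the log2 scale (SE, limma adjusted p = 0.396). The lack of calls among the chains therefore does not show equal responses. At an unadjusted p under 0.05 there were 36 genes without and 151 with the block, none of them a collagen chain, and edgeR and DESeq2 called 0 chains. For Col8a1, at 0.32 with IFN-β in WT-labelled and -0.24 in KO-labelled cells on the log2 scale, the blocked difference was -0.55 (95% interval -1.24 to 0.13).

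The genes that modify, fold, trim, cross-link and bind collagen were taken from a list of 51, all matched in the files (6 of them under older symbols, among these P3h2 as Leprel1 and P3h3 as Leprel2), of which 47 were tested. Untreated KO-labelled against WT-labelled cells had 2 of 47 higher and 0 lower without the block, and 10 higher and 5 lower with it. These are 4.26% higher and 0% lower without the block, against 3% and 3.23% of all genes, and 21.3% higher and 10.6% lower with it, against 13.5% and 13.1%. The list's median log2 difference was 0.24 without and 0.13 with the block, beside 0.0034 and 0.0041 over all genes. Adamts3, a proteinase that removes the amino-terminal propeptide, was at 15.4, 25.2 and 6.19 normalised reads in the untreated WT-labelled libraries and at 233 and 275 in the untreated KO-labelled ones, without overlap. It rose by 4.13 ± 0.53 on the log2 scale (limma adjusted p = 0.00234). Fkbp14, a prolyl isomerase of the endoplasmic reticulum that acts on collagen, was at 236, 192 and 233 in the former and at 502 and 680 in the latter, and rose by 1.41 ± 0.21 (limma adjusted p = 0.00553).

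With the block, 3 of the 7 tested genes of propeptide removal were lower and 1, Adamts3, was higher. Adamts2 fell by 0.99 ± 0.18, Bmp1, which removes the carboxy-terminal propeptide, by 0.83 ± 0.12, and Pcolce, its enhancer, by 0.45 ± 0.14 (limma adjusted p = 0.0052, 0.00223 and 0.0422). Of the 14 tested genes of prolyl and lysyl modification the largest blocked rises were in Leprel1 (0.85 ± 0.21), Plod1 (0.69 ± 0.11), Leprel2 (0.58 ± 0.12) and P4ha2 (0.40 ± 0.12), with limma adjusted p from 0.0033 to 0.0378. Among chaperones and export factors, Sec24d (0.81 ± 0.24) and Fkbp9 (0.48 ± 0.10) rose and Creb3l1, a transcription factor of collagen secretion, fell by 0.91 ± 0.27 with the block (limma adjusted p = 0.0396, 0.00896 and 0.0371). Of the 5 lysyl oxidases, which cross-link collagen, Loxl4 rose by 1.10 ± 0.14 with the block (limma adjusted p = 0.000985), and 0 of the 8 receptors tested passed. None of these 11 genes passed without the block.

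With IFN-β, 0 of the 47 pathway genes passed in either label without the block. With it 3 passed in WT-labelled cells (Loxl3, Ddr2 and Plod3) and 1 in KO-labelled cells (Loxl3), named after their values were seen. That is 6.38% and 2.13% of the 47, near the 4.95% and 3.48% of all genes, and DESeq2 without the block called 2 in WT-labelled and 0 in KO-labelled cells. Loxl3 was at 380, 527 and 344 normalised reads in untreated and at 900, 1048 and 750 in IFN-β-treated WT-labelled libraries, without overlap, and at 410 and 686 against 740 and 1331 in KO-labelled ones. With the block it rose by 1.12 ± 0.13 and 0.90 ± 0.16 on the log2 scale (limma adjusted p = 0.00107 and 0.0157). Ddr2, a collagen receptor kinase, rose by 0.51 ± 0.10 and the lysyl hydroxylase Plod3 by 0.41 ± 0.09 in WT-labelled cells (limma adjusted p = 0.0233 and 0.0304). In KO-labelled cells the blocked log2 changes of Ddr2 and Plod3 were 0.46 and 0.43 (limma adjusted p = 0.111 and 0.0834), and 0 pathway genes passed the interaction in either fit.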

How the data were processed

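The deposited values are a signal on a common scale, since the authors had divided each library's counts per gene by 1 size factor. Per the submitters' processing notes the tools were cutadapt 1.13, STAR 2.5.2a, HTSeq and DESeq2 with the mm10 genome. The libraries were directional, per the series' design text. Annotation, strand setting and filters are not given in the sources used here. All values (100%) were whole multiples of what 1 read is worth in their library, within 0.001 reads, so the reads were recovered.

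Testing used limma 3.58.1 in R 4.3.3 (the trend variant) on log2(value + 1), with 1 as pseudocount, so that folds of low genes come out too small. All 10 libraries entered 1 fit with 4 group means. Since the unit is not a raw count, it stands in place of a count test. The filter was filterByExpr of edgeR 4.0.16 with a minimum count of 10, and adjusted p-values are Benjamini-Hochberg over all 12313 genes, two-sided, with 0.05 as the threshold. Intervals are 95%. The library numbers come from the sample titles. The correlations in the report were each above the limit of 0.1 for the same number, so the numbers were taken to pair the libraries. Alternatives were the library number as a block, edgeR quasi-likelihood with and without it, DESeq2 1.42.0, pseudocounts of 0.5 and 5, no filter, TMM scaling, the compared groups alone, and each library left out. Leaving out libraries together with the block was added after the data were seen. The fits were also run on simulated counts with changes added to the untreated KO-labelled group alone. These counts held no effect of library number, so they do not check the fits under such an effect.

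The members are defined by symbol. Chains named in full passed a test or were among the 6 highest per kilobase, and up to 4 passing pathway genes per role are named by size of change. The members and lists were chosen with earlier results of these data known. Exon lengths and coordinates come from GENCODE M21 (GRCm38), with the coding transcript of longest coding sequence for each gene, and promoters from RefSeq (GRCm38.p6). Protein sequences were not used here.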

Additional observations from a re-analysis of the deposited data

How the results depend on the processing

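The genotype counts of collagen chains moved mainly with the library number as a block. Untreated, 11 chains passed in limma and 11 in edgeR with the replicate block, against 5 without it, and with IFN-β also 11 and 11 against 5. With each library left out, the count ranged from 1 to 6 untreated and from 2 to 5 with IFN-β without the block, and from 6 to 11 and from 7 to 12 with it; it was 8 untreated without WT-labelled library 1 or 3, or WT-labelled IFN-β library 3. By library number it ranged from 12 to 16. Of the pathway genes untreated, 15 passed with the replicate block in limma and 15 in edgeR, 7 in DESeq2 and 1 with the compared groups alone, against 2, and with each library left out 1 to 2 without the block and 7 to 16 with it, where 14 passed without untreated WT-labelled library 2 or WT-labelled IFN-β library 1. No call changed sign under any alternative run. All 9 settings with every library kept the calls of Col4a1, Col4a2, Col6a3 and Col23a1 in both treatments. No scaling run moved the median of all genes by more than 0.04 on the log2 scale. KO-labelled counts of 4.56 to 47.2 normalised reads limit the folds of the type IV pair, as the 0 reads do for Col23a1. With 2 KO-labelled libraries per group, low chains such as Col15a1 had wide intervals (-3.01 to 2.11 untreated by label without the block). Wide intervals were not limited to low chains. Col2a1, which differed by library number, had one of -1.20 to 4.89 in the same comparison, at 114 to 2864 normalised reads over the 10 libraries. The blocked fit changed no call of the IFN-β or interaction comparisons of collagen chains.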
